A study of Mus musculus with 33 samples.

Results

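The mitochondrial ribosomal protein genes are the nuclear genes whose proteins build the ribosome inside mitochondria. They were chosen by their symbol (Mrpl or Mrps followed by a number) among probe sets that name 1 gene, taking for each gene the probe set with the highest mean over the 33 arrays and requiring a mean signal above 13. The rule found 76 genes among the 12760 genes tested, and no gene was lost to the signal limit, since the dimmest members, Mrpl54 and Mrpl1, had mean signals of 71.7 and 76.5. Another 2 genes with such a symbol appear only on probe sets that name several genes and were left out.

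RNA came from the right hippocampus of 33 male mice, 1 animal per Affymetrix MOE430 2.0 array, in 3 groups of 11 on a SJL × C57BL/6J background. Tg2576 mice are heterozygous for a human APP transgene that carries the Swedish familial Alzheimer's disease mutation and is driven by the prion promoter. Differences from wild type therefore apply to APP expressed from that promoter. Wild-type littermates and the first Tg2576 group received vehicle, and the second Tg2576 group received TO901317, an LXR agonist (it activates the liver X receptors, which control sterol metabolism), by mouth at 50 mg/kg per day. The vehicle was Tween 80 with sodium carboxymethylcellulose. Animals were 20 weeks old and were killed 1 hour after the last dose, and dosing lasted 7 days by the series' design text but 5 days by the treatment protocol. Wild-type mice given the drug were not analysed here.

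Mitochondria keep a small genome that encodes core subunits of the respiratory chain, and a dedicated ribosome translates those messages. Its RNAs come from the mitochondrial genome, whereas all of its proteins are made in the cytosol from nuclear genes and imported. The large subunit (Mrpl genes) forms peptide bonds, and the small subunit (Mrps genes) reads the message. Some of the proteins descend from bacterial ribosomal proteins and others were added in the mitochondrial lineage. Neurons depend heavily on the respiratory chain for synaptic activity.

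By the current assignment of the proteins, 49 members belong to the large subunit and 26 to the small subunit. Mrps30 and Mrps18a are counted with the large subunit in spite of their names. The remaining gene, Mrps36, kept a ribosomal name although its protein is now placed in the 2-oxoglutarate dehydrogenase complex of the citric acid cycle. Of the ribosomal members, 45 have a bacterial homologue and 30 are specific to mitochondria.

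All arrays had been scaled to nearly the same trimmed mean, and their median signals ran from 19.4 to 28.9. Correlations between arrays lay between 0.964 and 0.989. The 8 neuronal markers gave summed signals of 15290 to 19630 in wild-type animals, of 15700 to 19910 in vehicle Tg2576 and of 16180 to 19400 in treated Tg2576. None of these markers was near 0, the lowest group mean of any being 330. The tissue holds many cell types, so fewer cells of a type and less RNA per cell cannot be told apart. Precision is limited by the 11 animals in each group. The p-values set a difference against the spread between arrays, 1 per animal, which holds animal and array variation together.

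The first comparison asked what the transgene changed in animals given vehicle. Mitochondrial ribosomal protein genes lay slightly above wild type in vehicle Tg2576, by a median of 0.073 on the log2(signal + 16) scale. The difference was above 0 for 68 of the 76 members and below 0 for 8. Over all genes tested the median was 0.0066, with 53.0% above 0. No member passed an adjusted p of 0.05 in limma's moderated test with Benjamini-Hochberg adjustment, where 30 of 12760 genes (0.235%) did. Every adjusted p for a gene comes from this test over all genes. At an unadjusted p under 0.05, 15 members (19.7%) were higher and 0 were lower, against 6.38% and 5.53% of all genes. These members vary together from array to array, so the counts are not counts of independent genes.

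The second comparison asked what TO901317 changed in Tg2576 animals. The members lay below vehicle Tg2576 by a median of -0.068, and the difference was below 0 for 71 of 76. Over all genes the median was -0.010, with 45.8% above 0. Of the 76 members, 1 passed the adjusted threshold, Mrpl36, which fell. Over all genes 36 of 12760 passed (0.282%), of which 21 fell (0.165%). At an unadjusted p under 0.05, 18 members (23.7%) were lower and 0 were higher, against 6.64% and 5.09% of all genes.

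The third comparison set treated Tg2576 against wild type. The median of the members was -0.0087, with 34 above 0 and 42 below, and -0.0025 over all genes. No member passed in limma's test, where 46 of 12760 genes did (0.361%), 18 higher (0.141%) and 28 lower (0.219%). At an unadjusted p under 0.05, 2 members were higher and 5 were lower, against 4.12% and 5.31% of all genes. The 3 comparisons share groups, vehicle Tg2576 entering the first 2 with opposite sign, so their values for the same gene are not independent of each other.

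**Figure D1:**
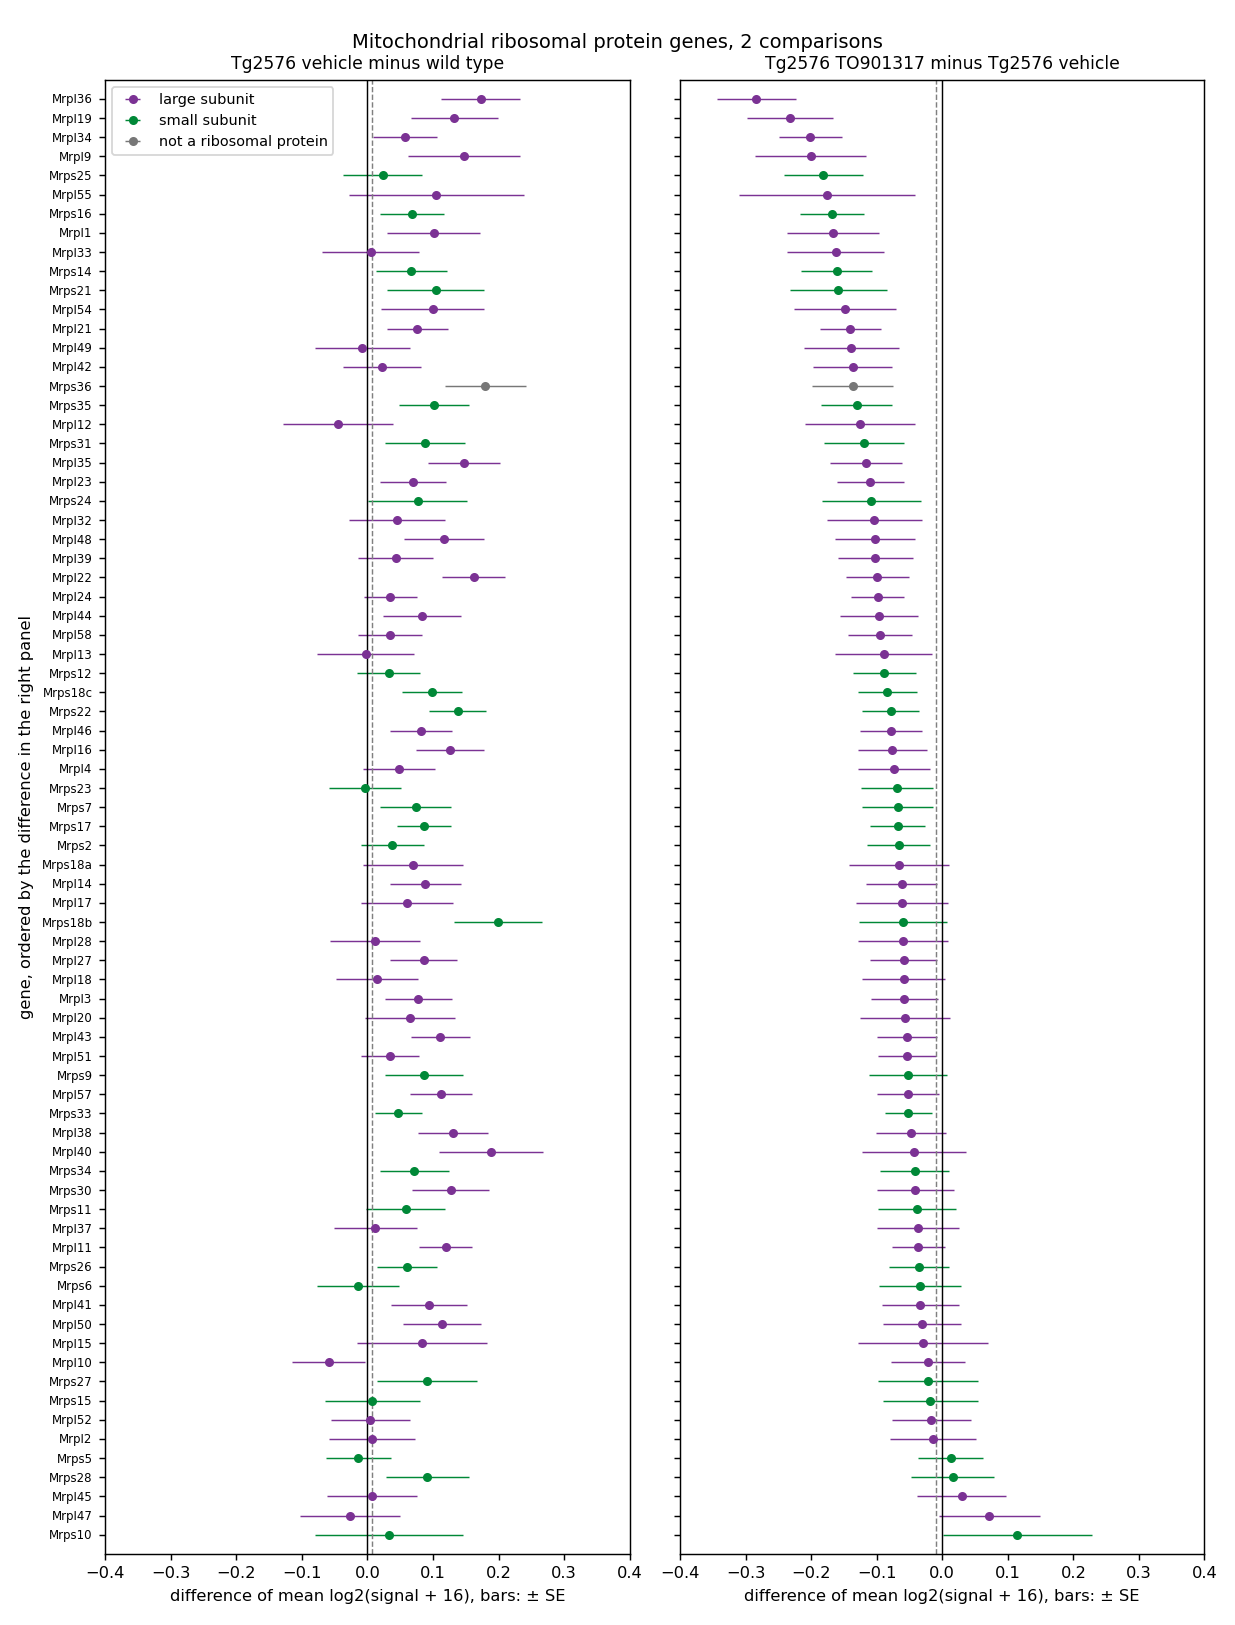
Log2 difference of each of the 76 members (points, with bars of ± SE from the limma fit) between vehicle Tg2576 and wild type (left) and between treated and vehicle Tg2576 (right), coloured by subunit. Genes are ordered by the right panel, the black line marks 0 and the dashed line the median of all genes tested. On the left 68 points lie above 0, and on the right 71 lie below 0, with Mrpl36 lowest at -0.28. Both panels use the vehicle Tg2576 arrays.

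For no member did the values of any pair of groups fail to overlap. Non-overlap was found for 0.047% of all genes between vehicle Tg2576 and wild type, 0.0157% between treated and vehicle Tg2576, and 0.0313% between treated Tg2576 and wild type.

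Mrpl36 encodes a very short protein of the large subunit, a homologue of bacterial L36. Its signal ran from 114 over a median of 124 to 146 in wild type. In Tg2576 mice on vehicle it ran from 120 over 145 to 171, and in treated Tg2576 from 88.6 over 118 to 134. All 11 treated animals lay below the median of vehicle Tg2576, while the 2 groups still overlapped between 120 and 134. Means were 127 ± 8.88, 146 ± 17.2 and 117 ± 13.5 (SD, n = 11 each). The gene fell by 0.28 on the log2 scale with TO901317 (SE 0.060, limma adjusted p = 0.0231). Vehicle Tg2576 differed from wild type by 0.17 (adjusted p = 0.21), with 10 of 11 animals above the wild-type median, and treated Tg2576 from wild type by -0.11 (adjusted p = 0.591). The difference kept its sign and most of its size in fits with fewer arrays, while the call did not hold in all of them: without treated animal 6 the difference was -0.25 with an adjusted p of 0.0532, and without treated animal 9 it was -0.266 with an adjusted p of 0.0504. With only the arrays of the 2 groups the difference stayed at -0.284 with an adjusted p of 0.0787, and without vehicle Tg2576 animals 3 and 4 it was -0.27 with an adjusted p of 0.0632. Mrpl36 is read by 1 probe set.

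Mrpl34, a homologue of bacterial L34, came next. Its signal ran from 243 over 261 to 306 in wild type, from 261 over 277 to 299 in vehicle Tg2576, and from 196 over 244 to 269 in treated Tg2576. All 11 treated animals lay below the vehicle median, and the groups overlapped between 261 and 269. Means were 267 ± 23.6, 278 ± 11.0 and 241 ± 21.8 (SD, n = 11 each), a difference with drug of -0.20 (SE 0.048) that missed the threshold (limma adjusted p = 0.059). Against wild type the treated group differed by -0.14 (adjusted p = 0.246).

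The windows around the start sites of Mrpl36 and Mrpl34 are shown because these genes had the smallest p-values with drug, and those of Mrpl22 and Mrps18b because they had the smallest p and the largest difference between vehicle Tg2576 and wild type. The sequences are from RefSeq (assembly GRCm38.p6), each 250 bases before to 50 bases after the start, read on the gene's strand. Capitals mark matches, on either strand, to the words searched: CCGGAAG for GABPA, AAGATGGC for YY1 and TGCGCATGC for the core of the NRF1 site. A longer form of the NRF1 site, the full palindrome, was searched too and can overlap the core. GABPA, NRF1 and YY1 are transcription factors known to act on nuclear genes of mitochondrial proteins. Mrpl36 lies at chr13:73330759-73331058 (plus strand), Mrpl34 at chr8:71464676-71464975 (plus), Mrpl22 at chr11:58171414-58171713 (plus) and Mrps18b at chr17:35916391-35916690 (minus).
Mrpl36: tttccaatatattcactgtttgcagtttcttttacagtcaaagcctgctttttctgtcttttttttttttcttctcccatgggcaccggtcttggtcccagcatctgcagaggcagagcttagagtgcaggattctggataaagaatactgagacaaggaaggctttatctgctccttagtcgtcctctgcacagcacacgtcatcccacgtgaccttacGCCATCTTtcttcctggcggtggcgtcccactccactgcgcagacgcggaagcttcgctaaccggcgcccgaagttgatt
Mrpl34: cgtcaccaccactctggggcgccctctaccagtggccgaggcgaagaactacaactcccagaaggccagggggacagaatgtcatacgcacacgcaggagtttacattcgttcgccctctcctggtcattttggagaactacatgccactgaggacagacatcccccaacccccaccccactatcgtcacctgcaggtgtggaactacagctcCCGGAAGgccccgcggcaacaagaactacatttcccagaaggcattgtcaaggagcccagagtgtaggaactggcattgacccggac
Mrpl22: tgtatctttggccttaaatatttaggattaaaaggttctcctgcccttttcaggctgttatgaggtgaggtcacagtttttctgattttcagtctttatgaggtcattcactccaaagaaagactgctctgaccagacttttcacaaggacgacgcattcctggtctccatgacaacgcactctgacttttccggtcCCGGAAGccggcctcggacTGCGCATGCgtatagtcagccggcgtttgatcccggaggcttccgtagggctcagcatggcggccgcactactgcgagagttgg
Mrps18b: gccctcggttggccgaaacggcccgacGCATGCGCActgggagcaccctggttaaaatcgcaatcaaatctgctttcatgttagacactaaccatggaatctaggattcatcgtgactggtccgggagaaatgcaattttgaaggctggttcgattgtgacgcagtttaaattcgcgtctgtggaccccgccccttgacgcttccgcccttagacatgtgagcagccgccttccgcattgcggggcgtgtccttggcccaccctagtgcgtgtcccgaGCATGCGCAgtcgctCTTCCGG

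The Mrpl36 window holds a YY1 word, read on the opposite strand, and the Mrpl34 window a GABPA word. The Mrpl22 window holds a GABPA word and an NRF1 core, and the Mrps18b window GABPA and NRF1 core words. A match of letters is a description of the window and does not show binding.

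A window was found for 67 of the 76 members. The GABPA word was in the windows of 25 members (37.3%), against 18.6% of the 10293 tested genes with a window and 9.93% of all genes of the table. The YY1 word was in 12 (17.9%, against 5.03% and 3.19%), the NRF1 core in 6 (8.96%, against 3.32% and 1.72%) and the full NRF1 palindrome in 3 (4.48%, against 2.22% and 1.07%). Member windows had a median GC content of 58.7%, against 60.7% for windows of tested genes. Members with and without the GABPA word had like differences: medians of 0.069 and 0.068 between vehicle Tg2576 and wild type, and of -0.065 and -0.068 with drug. The 12 members with the YY1 word had medians of 0.064 and -0.096, and the 55 without it 0.070 and -0.062.

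The start sites of many members lie beside that of a neighbour read in the other direction. Windows were counted if they overlapped on opposite strands and the genes were read away from each other. Such a window was found for 22 members (32.8%), against 17.1% of tested genes with a window. In 1 such pair both genes are members, Mrpl46 of the large and Mrps11 of the small subunit, whose starts lie 42 bases apart. The differences of Mrpl46 were 0.081 in the first comparison and -0.078 with drug, and those of Mrps11 were 0.058 and -0.039. The 18 neighbours that were tested, these members included, had medians of 0.024 and -0.032, with 9 above 0 and 9 below in the first comparison and 14 below 0 in the second. None of them passed. As examples, Mrpl32 and its neighbour Psma2, a proteasome subunit, differed by 0.045 and 0.065 in the first comparison. Mrpl40 and its neighbour Hira, a histone chaperone, differed there by 0.19 and -0.024.

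Other large subunit genes with low values under drug were Mrpl19 and Mrpl9, homologues of bacterial L19 and L9. Mrpl19 ran from 154 over 178 to 230 in wild type, from 167 over 203 to 253 in vehicle Tg2576 and from 146 over 171 to 204 in treated Tg2576. Of the treated animals 10 of 11 lay below the vehicle median, and the groups overlapped over much of the treated range. The difference was -0.23 (SE 0.066, limma adjusted p = 0.125). Its other probe sets, which read other stretches of the transcript, differed by -0.20 and -0.084. Mrpl9 ran from 138 over 202 to 258, from 181 over 234 to 265 and from 146 over 200 to 234 in the same order. It differed by -0.20 (SE 0.085, adjusted p = 0.339), again with 10 of 11 treated animals below the vehicle median, and by -0.20 and -0.14 on its other probe sets.

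In the small subunit, Mrps25, a protein specific to mitochondria, had the lowest value under drug. It ran from 195 over 210 to 236 in wild type, from 166 over 219 to 267 in vehicle Tg2576 and from 145 over 191 to 222 in treated Tg2576. The ranges of all groups overlapped, with 10 of 11 treated animals below the vehicle median. The difference was -0.18 with drug (SE 0.060, limma adjusted p = 0.196), and both other probe sets gave -0.17. Against wild type the treated group differed by -0.16 (adjusted p = 0.348), and vehicle Tg2576 by 0.024.

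Mrps16, a homologue of bacterial S16 that was named after its values were seen, ran from 321 over 376 to 410 in wild type, from 321 over 390 to 444 in vehicle Tg2576 and from 306 over 341 to 388 in treated Tg2576. All 11 treated animals lay below the vehicle median although the ranges overlapped. Its difference with drug was -0.17 (SE 0.049, adjusted p = 0.134).

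**Figure D2:**
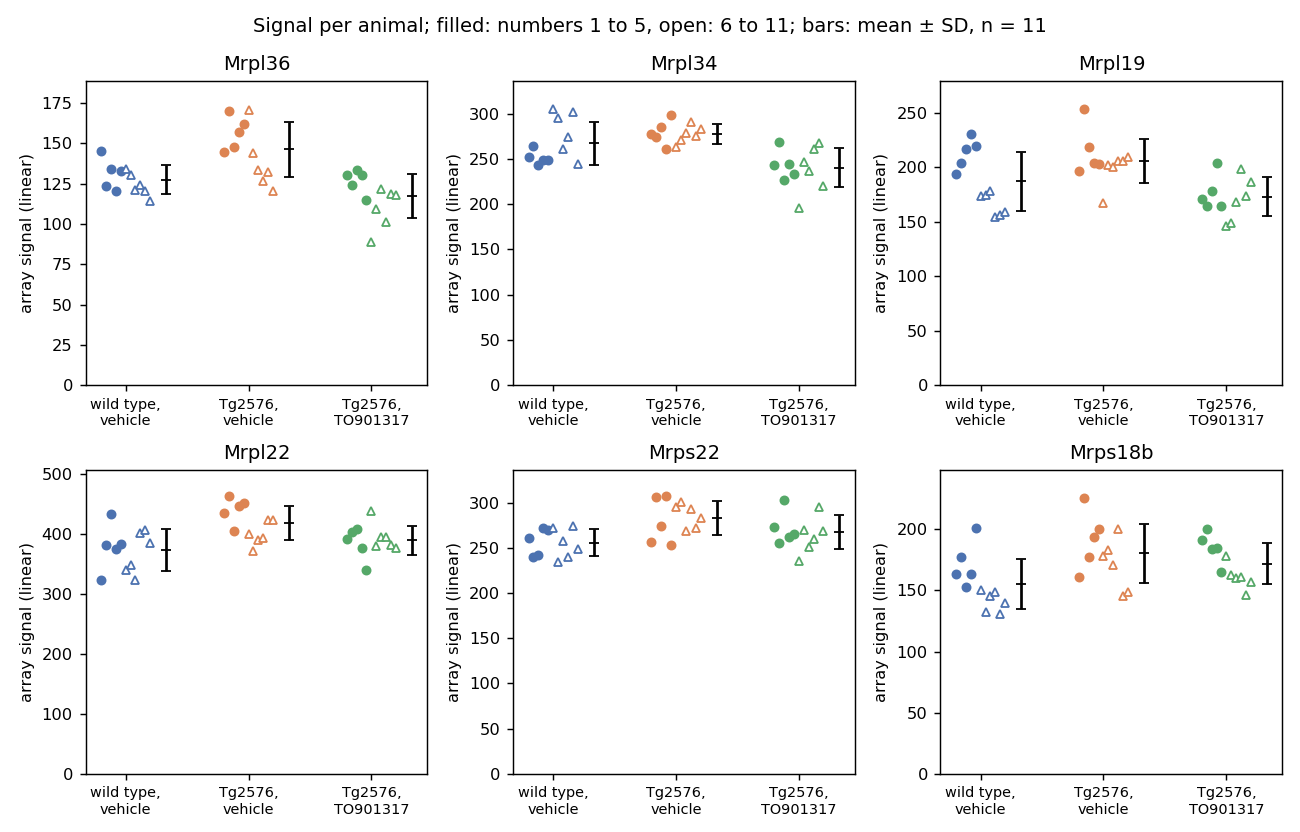
Linear array signal of 6 members in each animal, with filled circles for animals numbered 1 to 5 and open triangles for 6 to 11, and bars for the mean ± SD (n = 11 per group). In Mrpl36 the treated animals lie between 88.6 and 134 and vehicle Tg2576 between 120 and 171; the ranges of the groups overlap in all 6 genes.

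Between vehicle Tg2576 and wild type, the smallest p among the members was that of Mrpl22, a homologue of bacterial L22, a protein that lines the exit tunnel of the ribosome. It ran from 324 over 382 to 433 in wild type, from 372 over 423 to 463 in vehicle Tg2576 and from 339 over 391 to 438 in treated Tg2576. Of the vehicle Tg2576 animals 10 of 11 lay above the wild-type median, within overlapping ranges. The difference was 0.16 (SE 0.048, p = 0.00171, limma adjusted p = 0.124), and with drug -0.099 (adjusted p = 0.413).

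Mrps18b, a relative of bacterial S18 in the small subunit, had the largest difference. It ran from 131 over 150 to 201 in wild type, from 146 over 178 to 226 in vehicle Tg2576 and from 146 over 165 to 200 in treated Tg2576. The ranges of all groups overlapped, and 9 of 11 vehicle and 10 of 11 treated Tg2576 animals lay above the wild-type median. The differences from wild type were 0.20 for vehicle (SE 0.067, limma adjusted p = 0.196) and 0.14 for treated Tg2576 (adjusted p = 0.521), and that with drug was -0.060. The relative in the large subunit, Mrps18a, had means of 343 ± 30.9, 362 ± 50.4 and 346 ± 49.2 (SD, n = 11 each), with 0.069 in the first comparison and -0.065 in the second. The small subunit's Mrps18c gave 0.098 and -0.084.

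Mrpl40, a large subunit protein specific to mitochondria, ran from 114 over 127 to 176 in wild type, from 102 over 157 to 218 in vehicle Tg2576 and from 131 over 150 to 186 in treated Tg2576. The wild-type median lay below all 11 treated animals and below 10 of 11 animals of vehicle Tg2576, while the ranges overlapped. The differences from wild type were 0.19 for vehicle (SE 0.080, limma adjusted p = 0.325) and 0.15 for treated Tg2576 (adjusted p = 0.597). With drug the difference was -0.043.

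Mrps30, the other large subunit gene with a small subunit name, ran from 117 over 127 to 150, from 121 over 135 to 173 and from 122 over 137 to 148 in wild type, vehicle and treated Tg2576. The ranges of all groups overlapped, and vehicle Tg2576 reached higher than the other two. It differed by 0.13 in the first comparison (SE 0.059, adjusted p = 0.381), by -0.041 with drug and by 0.086 between treated Tg2576 and wild type.

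Mrps22 and Mrpl11 were named after their values were seen. Mrps22, a small subunit protein specific to mitochondria, had means of 255 ± 15.0 in wild type, 283 ± 19.2 in vehicle Tg2576 and 267 ± 18.8 in treated Tg2576 (SD, n = 11 each), a first difference of 0.14 (limma adjusted p = 0.154). Mrpl11, part of the factor-binding stalk, was above the wild-type median in all 11 vehicle Tg2576 animals. Its difference was 0.12 (adjusted p = 0.196) on the brightest probe set, and -0.0097 and 0.12 on the others.

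Mrps36, the member that is no ribosomal protein, lay on the same side of 0 as most ribosomal members. It ran from 194 over 204 to 253 in wild type, from 189 over 237 to 286 in vehicle Tg2576 and from 190 over 226 to 237 in treated Tg2576. The vehicle Tg2576 range held those of both other groups whole. Its differences were 0.18 in the first comparison (SE 0.062, limma adjusted p = 0.203) and -0.14 with drug (adjusted p = 0.376).

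Few members pointed the other way. Below wild type in vehicle Tg2576, though with no test passed, were Mrpl10 (-0.059) and Mrpl12 (-0.045), both of the stalk that recruits translation factors, and Mrpl47 (-0.026), Mrps6 (-0.014) and Mrps5 (-0.014). The last 3 turned above 0 when the probe sets of a gene were averaged (0.14, 0.022 and 0.028). The average of Mrpl47 takes in a dim probe set with a mean signal of 18.15. Mrpl12, a protein also reported to bind the mitochondrial RNA polymerase, ran from 288 over 380 to 451 in wild type, from 289 over 337 to 450 in vehicle Tg2576 and from 262 over 313 to 386 in treated Tg2576. The ranges overlapped, and 9 of 11 treated animals lay below the wild-type median. Its difference between treated Tg2576 and wild type, -0.17 (SE 0.084, limma adjusted p = 0.528), was the lowest of the members in that comparison. Others low there were Mrpl33 (-0.16, but 0.034 with marker scores of other cells as covariates), homologue of bacterial L33, and Mrpl49 (-0.15), specific to mitochondria.

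The members above 0 with drug were Mrps10 (0.11), Mrpl47 (0.072), Mrpl45 (0.030), Mrps28 (0.016) and Mrps5 (0.013), all with adjusted p of 0.762 or more. Mrps10, homologue of bacterial S10, also had the highest value between treated Tg2576 and wild type, 0.15, followed by Mrpl40 and Mrps18b, and Mrps28 was at 0.11 there. The Mrps10 signal ran from 134 to 246 in wild type, from 114 to 268 in vehicle Tg2576 and from 146 to 250 in treated Tg2576, a spread wider than any of these differences. For Mrpl47, Mrps5 and Mrps10 the other probe sets had the opposite sign with drug: the second Mrpl47 probe set gave -0.14, the 4 others of Mrps5 between -0.19 and -0.040, and the second of Mrps10 -0.055. These probe sets were dimmer than those used. Their mean signals were 18.15 against 234.1 for Mrpl47, 20.18 to 86.83 against 155.5 for Mrps5 and 20.94 against 191.4 for Mrps10. The dimmest of them lie near the filter limit of 13.3, so they are a weak check on the sign.

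The members' differences were of like size in both subunits. Of the large subunit genes 44 of 49 were above 0 between vehicle Tg2576 and wild type (median 0.076) and 47 of 49 below 0 with drug (median -0.073). Of the small subunit genes 23 of 26 were above 0 in the first comparison (median 0.070) and 23 of 26 below 0 with drug (median -0.067). Split by descent, members with a bacterial homologue had medians of 0.068 (39 of 45 above 0) and -0.073 (41 of 45 below 0), and those specific to mitochondria 0.082 (28 of 30 above) and -0.057 (29 of 30 below). At an unadjusted p under 0.05, 7 of the 45 (15.6%) and 7 of the 30 (23.3%) were higher in the first comparison, where 6.38% of all genes were. With drug 14 of the 45 (31.1%) and 3 of the 30 (10.0%) were lower, against 6.64% of all genes. The difference between these classes was not tested.

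Other probe sets of the same genes give a check with different probes on the same RNA. Past the signal filter there were 63 of them, for 37 members. Between vehicle Tg2576 and wild type 42 were above 0 and 21 below, with a median of 0.051, and 26 had the opposite sign to the probe set used. With drug 12 were above and 51 below, with a median of -0.063, and 18 had the opposite sign. Many of these probe sets are dim.

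Related gene groups were set beside the members. The 79 nuclear genes of respiratory chain subunits, many of which assemble with the products of the mitochondrial ribosome, had a median of -0.0080 between vehicle Tg2576 and wild type (33 above 0), of -0.015 with drug (31 above 0) and of -0.023 between treated Tg2576 and wild type. The 42 genes of cytosolic ribosomal proteins, which build the ribosome outside mitochondria, had medians of -0.044 (6 above 0), 0.033 (29 above 0) and -0.0067. None of these genes passed in any comparison. The differences between these medians and those of the members were not tested.

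**Figure D3:**
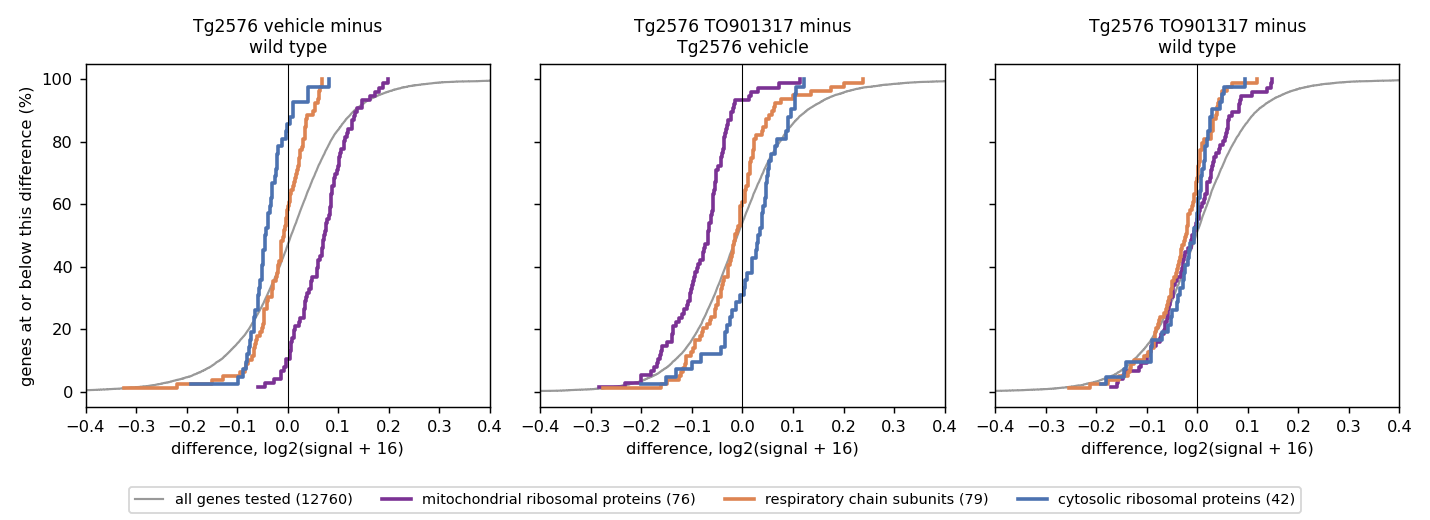
Cumulative share of genes (%) against the log2 difference in the 3 comparisons, for the 76 members, 79 respiratory chain subunit genes, 42 cytosolic ribosomal protein genes and all 12760 genes tested. The curve of the members lies to the right of that of all genes on the left (medians 0.073 and 0.0066), to its left in the middle (-0.068 and -0.010) and close to it on the right (-0.0087 and -0.0025).

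Genes that serve the same ribosome were described from lists by function, and none of their members passed in any comparison. The 4 tested mitochondrial ribosome proteins with other names, Dap3, Ptcd3, Chchd1 and Gadd45gip1, were all above 0 between vehicle Tg2576 and wild type (median 0.071) and all below 0 with drug (median -0.089). Dap3, a GTP-binding protein of the small subunit, had 0.13 (limma adjusted p = 0.584) in the first comparison, and Chchd1, also of the small subunit, -0.10 with drug (adjusted p = 0.47). Ptcd3 was the closest to a call between treated Tg2576 and wild type, at -0.065 (adjusted p = 0.679).

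Of the 18 tested genes of ribosome assembly and rRNA modification, 12 were above 0 between vehicle Tg2576 and wild type (median 0.041) and 11 below 0 with drug (median -0.037). Malsu1, an assembly factor that keeps the large subunit from joining too early, had means of 134 ± 11.6, 158 ± 20.6 and 143 ± 13.1 in wild type, vehicle and treated Tg2576 (SD, n = 11 each). Its differences were 0.21 (SE 0.059, limma adjusted p = 0.117) and -0.12 with drug (adjusted p = 0.398). Rbfa, a small subunit assembly factor, had 0.19 between treated Tg2576 and wild type (adjusted p = 0.556).

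The 10 translation factors had medians of 0.023, -0.059 and -0.040 in the 3 comparisons. Tufm, the elongation factor that brings aminoacyl-tRNA to the ribosome, had means of 95.0 ± 10.1, 87.3 ± 10.3 and 79.4 ± 5.87 in wild type, vehicle and treated Tg2576 (SD, n = 11 each). It differed by -0.11 in the first comparison (limma adjusted p = 0.484) and by -0.22 between treated Tg2576 and wild type (SE 0.057, adjusted p = 0.0853). Mrrf, the recycling factor, had -0.14 with drug (adjusted p = 0.341).

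The 15 tested aminoacyl-tRNA synthetases, which charge tRNAs in mitochondria, had medians of 0.034, -0.024 and 0.026. Their smallest p-values belonged to Cars2 (0.11 in the first comparison), Nars2 (-0.10 with drug) and Iars2 (0.068 between treated Tg2576 and wild type), with adjusted p of 0.584 or more. The 12 genes of mitochondrial transcription and RNA stability had medians of 0.029, -0.045 and -0.017. Tefm, the elongation factor of the mitochondrial RNA polymerase, had means of 68.7 ± 9.30, 56.4 ± 8.24 and 60.6 ± 11.2 in wild type, vehicle and treated Tg2576 (SD, n = 11 each), with -0.23 in the first comparison (adjusted p = 0.196) and -0.15 between treated Tg2576 and wild type. Lrpprc, which stabilises mitochondrial messages, had -0.12 with drug (adjusted p = 0.383).

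The 9 regulators of mitochondrial biogenesis had a median of -0.088 between vehicle Tg2576 and wild type, with 7 below 0, and of 0.064 with drug, with 7 above 0, the opposite signs to the members. Pprc1, a coactivator, had -0.14 in the first comparison (limma adjusted p = 0.431), and Esrra, a nuclear receptor, 0.11 with drug (adjusted p = 0.482). Gabpb1, the partner subunit of GABPA, had 0.091 between treated Tg2576 and wild type (adjusted p = 0.787). Gabpa, Nrf1 and Yy1, the factors whose words were searched in the windows, had -0.030, -0.12 and 0.0093 in the first comparison and -0.0080, 0.064 and -0.0075 with drug.

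The members varied together across animals. The median correlation between pairs of members over the 33 arrays was 0.215 (2850 pairs, 82.0% above 0, from -0.465 to 0.787), and 0.168 after the group means were removed. Over pairs of all genes tested the median was 0.0081. The pairs share the same 33 arrays, and the part of array quality in these correlations was not tested. Mrpl17, Mrps24 and Mrps7 correlated best with the mean of the other members (0.727, 0.718 and 0.708), and Mrpl15, Mrpl45 and Mrpl33 least (-0.095, -0.022 and -0.018). For 73 of 76 members the correlation was above 0, with a median of 0.501.

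**Figure D4:**
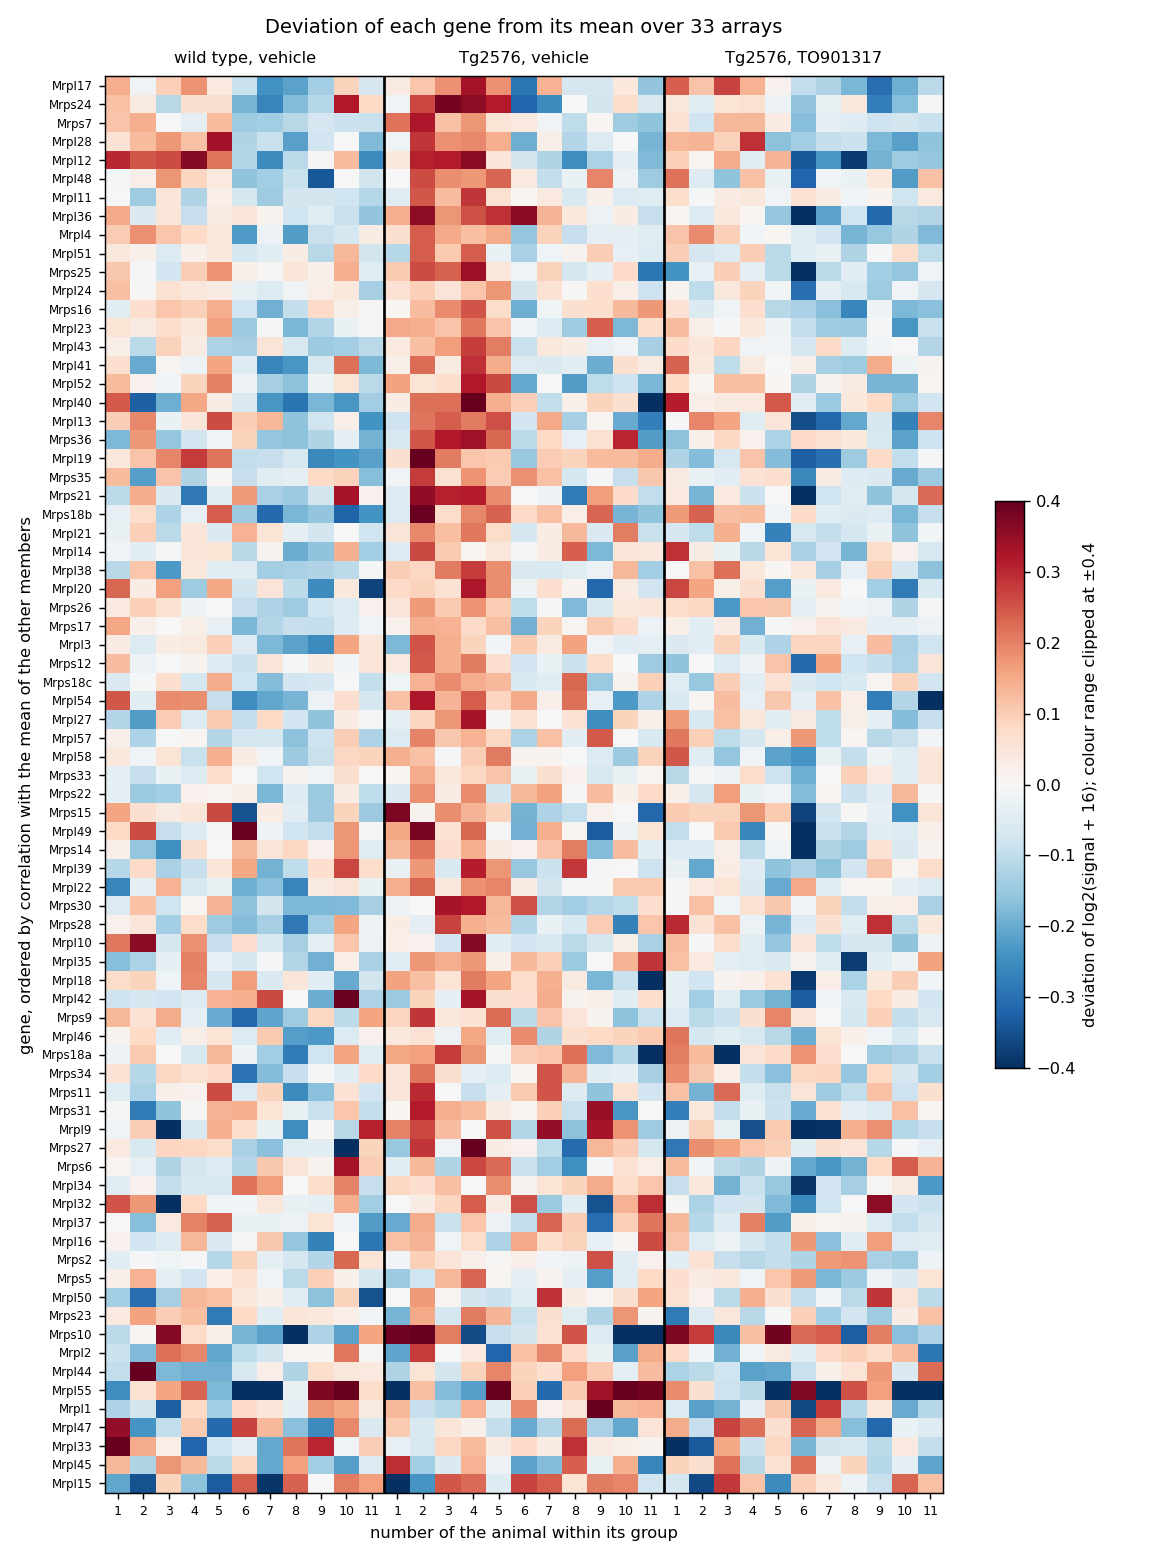
Deviation of each member's log2(signal + 16) from its mean over 33 arrays, with genes ordered by correlation with the mean of the other members and animals in columns by group and number. Colours are clipped at ±0.4. Columns 2 to 5 of vehicle Tg2576 are the most uniformly red, and genes toward the bottom, such as Mrpl15 and Mrpl33, follow no common pattern.

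Averaged over the 76 members, each animal's deviation from the mean over all arrays was -0.019 ± 0.049 in wild type, 0.050 ± 0.074 in vehicle Tg2576 and -0.031 ± 0.042 in treated Tg2576 (SD, n = 11 each). The ranges were -0.099 to 0.042, -0.038 to 0.18 and -0.10 to 0.042, so the lowest vehicle Tg2576 animals lay inside both other groups. The count of members above their own wild-type median was 13 to 51 of 76 in wild type (median 38), 36 to 70 in vehicle Tg2576 (median 53) and 24 to 50 in treated Tg2576 (median 38).

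The highest 4 of the 33 animals by this average were vehicle Tg2576 numbers 4, 2, 3 and 5, at 0.18, 0.17, 0.10 and 0.092, with 70, 69, 64 and 61 members above the wild-type median. These arrays also had the lowest median signals of the study, 20.7, 20.2, 19.6 and 19.4. The Gapdh control probe sets at the 3' and 5' ends of the transcript, whose log2 ratio reports on RNA integrity, gave 0.11 and 0.079 for numbers 3 and 4 and -0.077 or less on all other arrays. The same ratio for the actin control probe sets was 1.122, 1.2, 1.275 and 1.338 for numbers 2, 3, 4 and 5. These were the 4 highest values of vehicle Tg2576, where the other arrays had 1.119 or less. Arrays of other groups reached as high, with wild-type number 2 at 1.477. Group means of the actin ratio were 1.167 in wild type, 1.075 in vehicle and 1.1 in treated Tg2576. Within vehicle Tg2576 the mean was 1.202 for numbers 1 to 5 and 0.969 for 6 to 11. The mean deviation of the neuronal markers was 0.24, 0.12, 0.14 and 0.14 on arrays 4, 2, 3 and 5, among the 6 highest values along with wild-type number 5 (0.18) and treated number 3 (0.15). The part of array median, RNA quality and neuronal RNA in the values of the members was tested only as far as the following fits go.

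**Figure D5:**
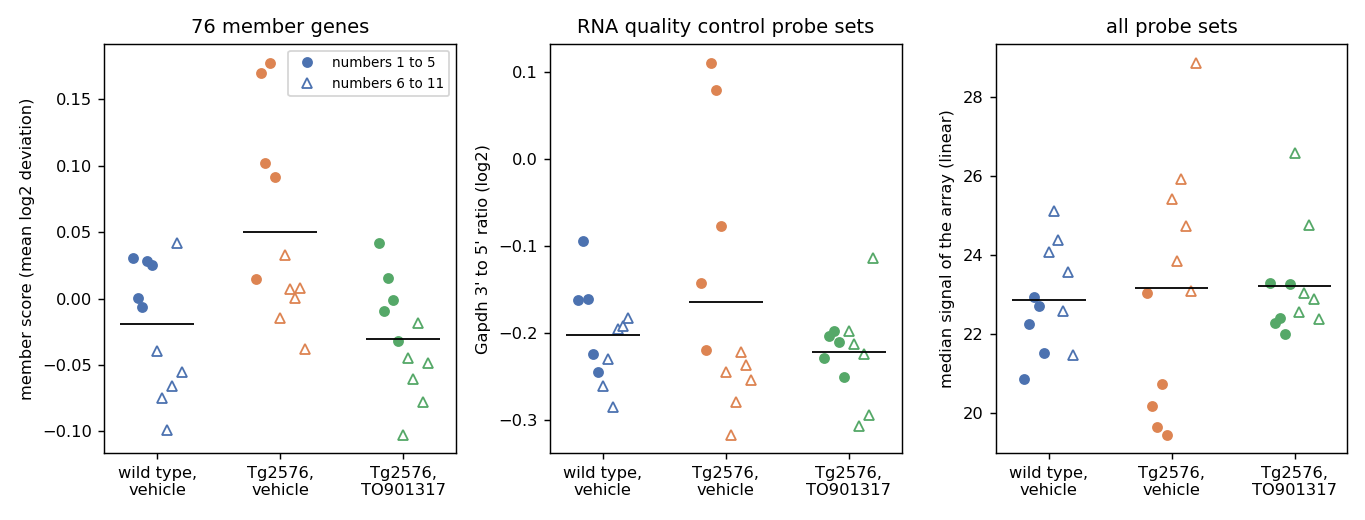
Per animal, the mean log2 deviation over the 76 members (left), the log2 ratio of Gapdh control probe sets, 3' over 5' (middle) and the median linear signal of the array (right), by group, with lines at the group means (n = 11). Filled circles are animals numbered 1 to 5 and open triangles 6 to 11. The 4 highest member averages belong to vehicle Tg2576 arrays whose median signals lie between 19.4 and 20.7.

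With vehicle Tg2576 numbers 3 and 4 left out, the median of the members was 0.049 between vehicle Tg2576 and wild type, with 61 above 0, and -0.054 with drug, with 64 below 0. With the Gapdh ratio as a covariate the medians were 0.064 and -0.052, with the neuronal score as a covariate 0.058 and -0.068, and with the array median as a covariate 0.078 and -0.066. The neuronal markers had medians of 0.019 and -0.0046, and none of them passed.

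Markers of other cells and of neighbouring regions also differed between the groups, few of them past the threshold. Of the 8 markers of meninges and fibroblasts 7 were above 0 between vehicle Tg2576 and wild type (median 0.38) and 8 below 0 with drug (median -0.20). Their summed signals were 555 to 2088 in wild type, 666 to 2291 in vehicle Tg2576 and 493 to 1682 in treated Tg2576. Of the 8 tested oligodendrocyte markers 8 were below 0 in the first comparison (median -0.18) and 7 above 0 with drug (median 0.14), with summed signals of 9085 to 14290, 7094 to 13520 and 9712 to 13780. Of the 9 astrocyte markers 7 were below 0 in the first comparison (median -0.18, with Slc4a4 passing) and 5 with drug (median -0.0016), with summed signals of 9716 to 12840, 9264 to 11120 and 10270 to 12760. Of the 8 markers of thalamus and striatum, regions beside the hippocampus, 6 were above 0 in the first comparison (median 0.14) and 7 below 0 with drug (median -0.12), with a median of 0.019 between treated Tg2576 and wild type and none passing. In the first comparison and with drug these medians had the signs of the members' medians. The same holds for the medians of the meningeal, microglial and neuronal markers. Summed signals of the thalamic and striatal markers were 433 to 624 in wild type, 448 to 964.5 in vehicle Tg2576 and 521 to 732 in treated Tg2576. Of the 7 dentate gyrus markers 6 were below 0 in the first comparison (median -0.23), where Tdo2 fell by 0.77 (limma adjusted p = 0.00128), and 4 were below 0 with drug (median -0.043). Their summed signals were 1624 to 2150, 1405 to 1976 and 1413 to 1844. Of the 7 tested choroid plexus markers 3 were above 0 in the first comparison (median -0.0054) and 6 with drug (median 0.19), none passing. Their summed signals varied most, at 414 to 10080 in wild type, 221 to 7393 in vehicle and 982 to 8531 in treated Tg2576. Of the 7 endothelial markers 3 were above 0 in the first comparison (median -0.050) and 5 with drug (median 0.098), where 1 passed. Of the 9 tested microglial markers 7 were above 0 in the first comparison (median 0.026) and 6 below 0 with drug (median -0.044), none passing. Of the 4 markers of oligodendrocyte precursors 3 were below 0 in the first comparison (median -0.14) and 2 with drug (median 0.016). In that list 1 marker passed as lower between treated Tg2576 and wild type. No marker of these lists was at 0, the lowest group mean being 12.0 in the meningeal list. That mean lies below the signal filter's limit of 13.3, so the dimmest markers may not have been detected in every group. With scores of choroid plexus, oligodendrocyte and dentate gyrus markers as covariates the medians of the members were 0.064 and -0.075. The part of meningeal, astrocyte, endothelial, microglial, oligodendrocyte precursor, thalamic and striatal RNA in the values of the members was not tested.

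Animals numbered 1 to 5 and 6 to 11 differed on average within every group, while their ranges overlapped. Wild-type number 10, at 0.042, lay above all wild-type animals numbered 1 to 5. The average over the members was 0.016 for the first 5 wild-type animals and -0.049 for the other 6. In the same order it was 0.11 and -0.00086 for vehicle Tg2576 and 0.0030 and -0.059 for treated Tg2576. The labels do not say that these numbers mark a batch. With the arrays numbered 1 to 5 alone, the median of the members was 0.089 between vehicle Tg2576 and wild type (69 above 0) and -0.10 with drug (69 below 0). With those numbered 6 to 11 alone, which leaves out the 4 highest arrays, it was 0.053 (55 above 0) and -0.046 (56 below 0). Mrpl36 differed with drug by -0.27 in the first set and -0.29 in the second, with adjusted p of 0.127 and 0.164 in these smaller fits, and with a term for the 2 sets in the full fit its adjusted p was 0.00495.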

How the data were processed

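MAS5, named in the submitters' processing notes without a version, gave the deposited values, which are intensity per probe set on a linear scale. No MAS5 settings were found in the labels. Of 45101 probe sets, 34945 carry the symbol of 1 gene in the platform annotation, which can be old. The deposited intensity was turned into log2(signal + 16), a scale on which dim genes appear to change less than they do. After the dimmest 40% of probe sets by mean were removed (limit 13.3), each gene was read from its brightest remaining probe set, which left 12760 genes. Group means were compared in limma 3.58.1 under R 4.3.3, using all 33 arrays in 1 fit and moderated variances with the trend and robust options. Benjamini-Hochberg adjusted p under 0.05 counted as passing. The procedure was tested on simulated data.

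The members and the gene lists were chosen with earlier results of these data known, so lists are described by counts and medians, with no test. Genes named by rule are members that passed, the 5 largest differences each way per comparison, Mrpl36, Mrpl12, Mrps30, Mrps18a and Mrps36, the members nearest the signal limit, the 3 members most and the 3 least correlated with the others, and the gene of smallest p of each list per comparison. Named outside these rules were Mrps16, Mrps18c, Mrps22, Mrpl11, the neighbour pairs given as examples, single cell type markers, and the searched factors Gabpa, Nrf1 and Yy1. Subunit and descent were assigned from general knowledge of the mitochondrial ribosome, and promoter windows came from RefSeq (GRCm38.p6), matched by gene for 67 of 76 members.

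Same-numbered animals of different groups were checked for pairing: their deviations correlated above 0.1 in 1, 3 and 6 of 11 pairs. Between vehicle and treated Tg2576 all 11 correlations were above 0, from 0.0413 to 0.192. These weak correlations do not settle whether the numbers pair the samples, and the main fit treats the animals as unpaired. Arrays of different groups correlated by 0.053 on average when both were numbered 1 to 5 or both 6 to 11, and by -0.054 otherwise. Other settings tried were pseudocounts of 1 and 64, other signal filters, quantile or median normalization, averaged probe sets, fewer arrays, covariates, plain variances, a replicate block and leaving out each array. The fits by number set and those with the neuronal score or the array median were chosen after seeing the data.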

Additional observations from a re-analysis of the deposited data

How the results depend on the processing

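Under all 18 alternatives the median over the members kept its sign between vehicle Tg2576 and wild type and with drug. It ran from 0.0488 to 0.0887 between vehicle Tg2576 and wild type and from -0.103 to -0.0456 with drug. The signal filters, the arrays of the 2 groups only and plain variances could not move it. Nor could the replicate block or the term for the number sets. As in the main fit, all of these gave 0.0726 and -0.0681. With each array left out in turn the median was 0.0594 to 0.0825 and -0.0821 to -0.0563. Arrays outside a comparison left it unchanged. Between treated Tg2576 and wild type the median ran from -0.0272 to 0.00105 under the alternatives, turning above 0 with the array median in the fit. No member passed in the comparisons with wild type under any alternative. With drug the count of members that fell was 2 (Mrpl36 and Mrpl34) with the lowest 60% of probe sets left out, arrays centred on their median, probe sets averaged, or with the Gapdh ratio, the 3 marker scores, the number sets or the array median in the fit, and 3 (with Mrpl19 too) with the neuronal score. It was 0 with the arrays of the 2 groups only, without vehicle Tg2576 numbers 3 and 4, and with numbers 1 to 5 or 6 to 11 alone. These fits have fewer samples and also leave out particular arrays, which cannot be told apart. With each array left out the count was 0 to 2. It was 0 without treated number 6 or 9, and 2 without wild-type number 6 or 10 or treated number 2 or 10. The cause of these shifts was not tested.

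The main fit treats the animals as unpaired. With the replicate number as a block 1 member passed with drug, Mrpl36 (adjusted p = 0.0285), and over all genes 51, 31 and 65 passed in the 3 comparisons, against 30, 36 and 46 without it. Over all genes the count of calls moved by more than 1.5 times under some alternatives: between 0 and 75 passed in the first comparison, 0 and 71 in the second, and 4 and 79 between treated Tg2576 and wild type.

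Signs turned for genes that passed no test, among them Mrpl33, which lay at -0.158 between treated Tg2576 and wild type. With probe sets averaged, Mrpl47 was at 0.136 in the first comparison and -0.0351 with drug, Mrps5 at 0.0281 and -0.0926, and Mrps6 at 0.0218 in the first. With numbers 1 to 5 only, Mrpl47, Mrps5 and Mrps6 were at 0.0404, 0.0159 and 0.145 in the first comparison, Mrps28 at -0.0559 with drug, and Gabpb1 and Ptcd3 at -0.0106 and 0.0276 between treated Tg2576 and wild type. With the 3 marker scores, Mrpl47 was at 0.0533 in the first comparison, Mrps28 at -0.00978 with drug and Mrpl33 at 0.0338 between treated Tg2576 and wild type. With each array left out, Mrpl47 ran from -0.0566 to 0.00975, Mrps6 from -0.0402 to 0.0172 and Mrps5 from -0.0382 to 0.00723 in the first comparison, and Mrps28 from -0.0136 to 0.0405 and Mrps5 from -0.00789 to 0.0375 with drug.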
